A study of Callithrix jacchus and Rattus norvegicus and Loxodonta africana with 31 samples.

Results

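The kidney of the common marmoset, a New World monkey, was set beside the kidney of the rat, gene by gene, through the rank that each gene held among the same genes in each species. The members are the 4 kidney libraries of the series, of 31 samples in all, together with the 6474 autosomal genes whose symbol occurred once in each species' table and was the same in both, ignoring case. These genes are 34.3% of the 18878 autosomal marmoset genes and 32.9% of the 19663 autosomal rat genes. Symbols are printed in capitals for both species, and a shared symbol was not checked as orthology.

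The series measured polyadenylated RNA by sequencing in tissues of both sexes, in a study of Y-linked genes across mammals. Each kidney group holds 1 female and 1 male library, both labelled individual 1 of their sex, so each species has 2 animals, and sex and animal cannot be told apart. Heart and liver libraries carry the same sex and individual labels. The marmoset tissues came from a primate centre and were sequenced as strand-specific libraries; the labels give no strain, age or treatment for either species, and the library protocol they quote does not name the rat.

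The kidney filters blood at the glomerulus, where podocytes hold back protein, and then reclaims most of what was filtered. The proximal tubule takes up glucose, amino acids and phosphate, secretes organic anions and cations, and makes glucose. The loop of Henle, distal tubule and collecting duct set the final salt, water and acid content of urine. The kidney also makes hormones, among them active vitamin D.

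Levels are FPKM (fragments scaled to transcript length and to the mapped fragments of the library), normalized by the authors within each species' table, so no test was made across species. For each species the mean of log2(FPKM + 1) over both kidney libraries was turned into a percentile rank from 0 to 100 over the joined genes. A rank shift is the marmoset rank minus the rat rank, in percentile points. A gene was counted as different where the shift was at least 25 points and both libraries of 1 species ranked above both of the other. The summed FPKM of a kidney library ran from 336485 in the female marmoset to 1212680 in the male rat and was higher in the male in both species. Sequencing depth is unknown from FPKM. An exact 0 can be a failed estimate, because ALB, the gene for albumin, is at 0 in every liver library of both tables, and in the male marmoset liver SERPINA1, FGA, FGB and HP are at 0 as well, although the female liver held 5338 FPKM of FGA and 15562 FPKM of HP. A gene at 0 is therefore described as listed at 0, with no fold. In bulk tissue, fewer cells of a type and less RNA per cell cannot be told apart.

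The order of genes was largely shared between the kidneys. Spearman's rho between marmoset and rat kidney was 0.782 over the 6474 genes, which are not independent replicates and share 4 libraries. The same value was 0.803 for heart and 0.794 for liver, while marmoset kidney against rat heart gave 0.640 and marmoset kidney against rat liver 0.673. The female and the male kidney of a species correlated at 0.939 in the marmoset and 0.949 in the rat. The median absolute rank shift was 8.76 points, against 5.42 points between the female and the male marmoset kidney and 4.65 points between the female and the male rat kidney. In 3535 genes (54.6%) the species differed by under 10 points, and in 2225 genes (34.4%) the ranks of the species overlapped.

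Of the 6474 joined genes, 475 (7.34%) were counted as higher in the marmoset kidney and 467 (7.21%) as higher in the rat kidney, 14.6% in either direction. The same rule counted 6.81% and 6.56% of these genes in heart (13.4% in either direction) and 7.12% and 6.55% in liver (13.7%). At the edge of the rule, MBIP (25.01 points) and VIPR2 (25.02 points) were just inside, and EHD4 (-24.9 points) and ERAP1 (-24.9 points) just outside. A second count used FPKM made comparable by quantile normalization over the joined genes, and called a log2 difference of at least 2 with no overlap. It gave 273 genes (4.22%) higher in the marmoset and 285 (4.4%) higher in the rat, 8.62% in either direction, and 479 of its 558 genes were counted by rank in the same direction. Among the 558 were 73 genes with both ranks at 75 or above, a range in which ranks leave little room for a shift.

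**Figure D1:**
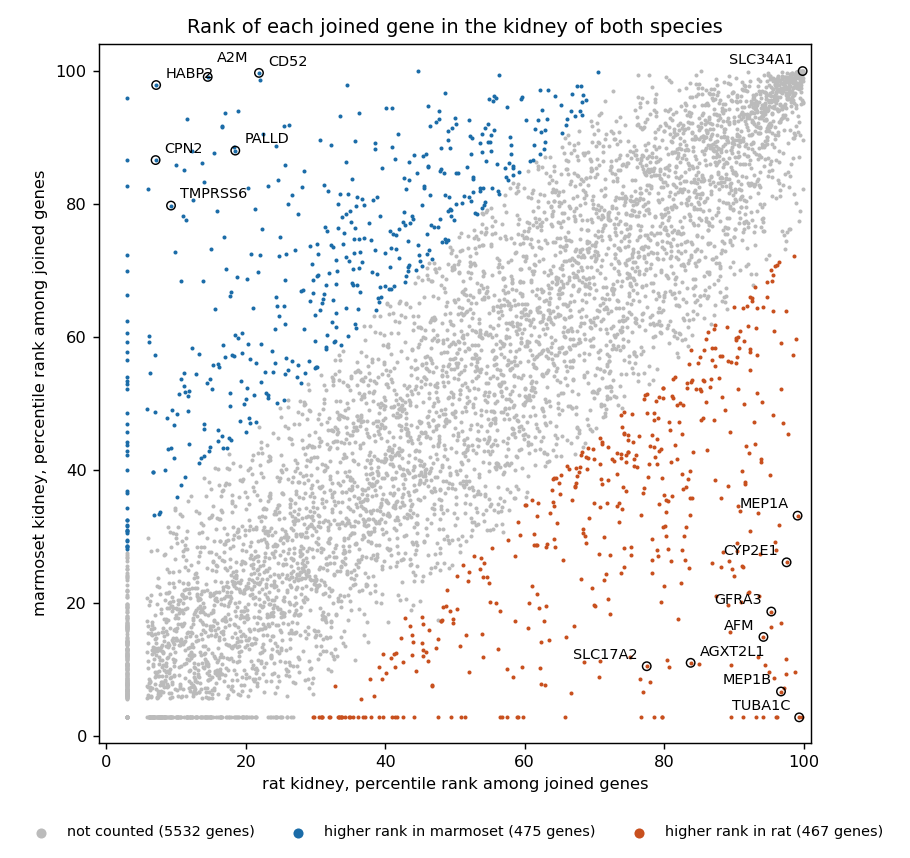
Percentile rank of each of the 6474 joined genes in rat kidney (horizontal axis) and marmoset kidney (vertical axis), 0 to 100, 1 point per gene; blue points are the 475 genes counted as higher in marmoset, orange points the 467 counted as higher in rat, and open circles mark labelled genes. Most points lie along the diagonal, SLC34A1 sits in the top corner of both species, and the genes listed at 0 in a species form straight lines of tied ranks at its low end.

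The 10 genes with the highest mean rank had ranks near the top in both species, the lowest being the rat rank of UQCR11 at 99.6. SLC34A1, the sodium-phosphate cotransporter of the proximal tubule, stood at 784 FPKM in the female and 2108 FPKM in the male marmoset kidney, and at 389 and 1759 FPKM in the rat. HSD11B2, which inactivates cortisol in the collecting duct, stood at 274 and 1175 FPKM in the marmoset and 228 and 660 FPKM in the rat. GGT1, a brush border enzyme that splits glutathione, held 235 and 664 FPKM against 366 and 961 FPKM. HAO2, CD74, ITM2B, ATP5B and UQCR11 were also among the 10. For SLC34A1, HSD11B2 and GGT1 the FPKM ranges of the species overlapped.

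Genes of the nephron checked the labels of the tissue. UMOD, the most abundant urinary protein, made in the loop of Henle, stood at 272 and 910 FPKM in the marmoset and 1665 and 1072 FPKM in the rat kidney. KL, the gene of klotho, stood at 55.8 and 76.1 FPKM against 53.8 and 55.4 FPKM. Both were present in every kidney library, and neither was counted as different between the species.

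Kidney gene lists were read in 10 groups, and 110 of their members were joined. By rank, 9 were counted as higher in the marmoset and 11 as higher in the rat (18.2% in either direction, beside 14.6% of all joined genes), with a median shift of -0.25 points. Since most of these genes rank high, the closer background is the 2131 joined genes at rank 75 or above in a species, of which 21.8% were counted by rank. In the marmoset direction these were 10.5% and in the rat direction 11.4%. Among the 91 list members at that level, 5 were higher in the marmoset and 8 higher in the rat (14.3%). The quantile-normalized count gave another picture of the same 91 genes: 9 were higher in the marmoset and 21 higher in the rat (33.0%), beside 8.59% and 10.4% of the 2131 (19% in either direction). Many symbols were missing from the marmoset table, in which 7994 autosomal genes are named LOC and a number. Adding symbols from a table of Ensembl IDs raised the join to 11094 genes, of which 744 (6.71%) were counted as higher in the marmoset and 747 (6.73%) as higher in the rat. Genes given below as joined through the name table come from that larger set and are ranked in it.

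**Figure D2:**
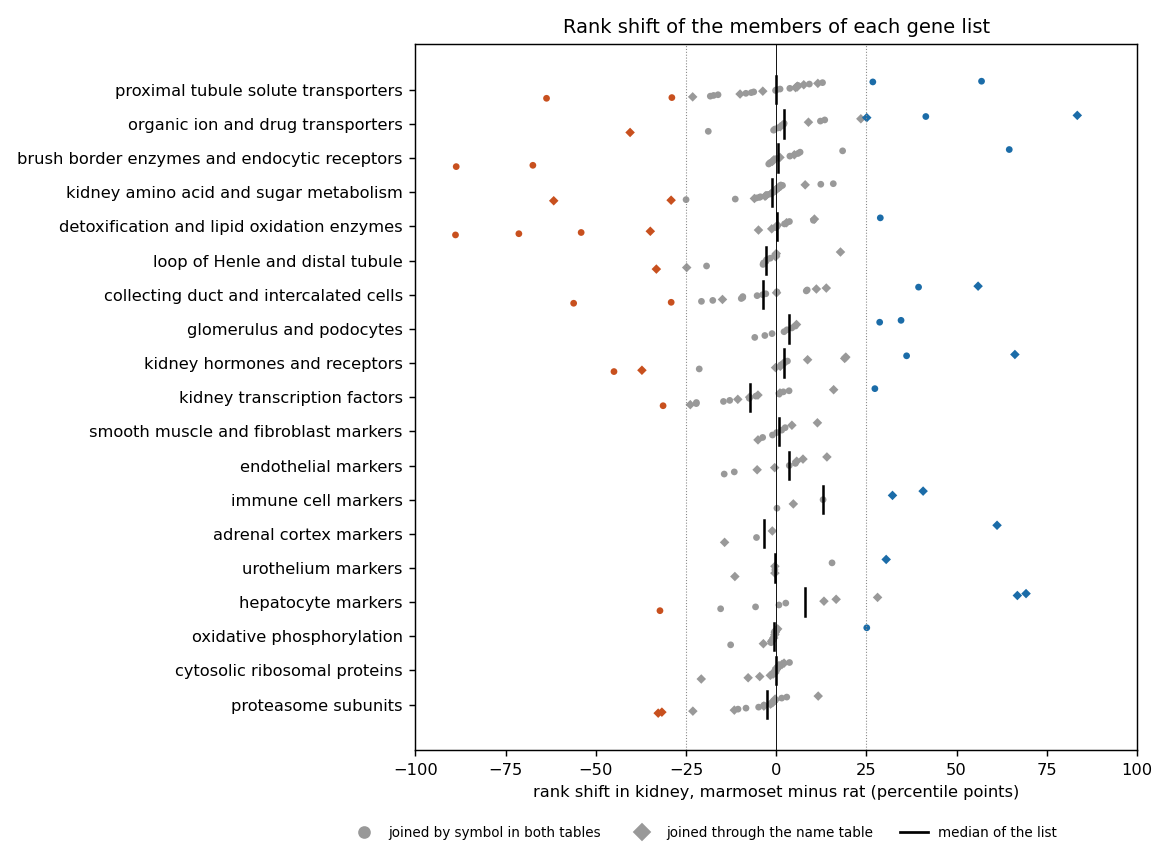
Rank shift in kidney (horizontal axis, percentile points, marmoset minus rat) of each member of 19 gene lists (vertical axis) in the join of 11094 genes; circles were joined by symbol, diamonds through the name table, blue and orange are counted as higher in marmoset and in rat, grey is not counted, black bars are list medians and dotted lines mark 25 points. The list medians lie between -7.36 points for kidney transcription factors and 13.0 points for immune cell markers, and single members lie far from them in both directions.

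Of 27 solute carriers of the proximal tubule, 17 were joined, with a median shift of -0.05 points. By rank 1 was counted as higher in the marmoset and 2 as higher in the rat (17.6%, near the 14.6% of all joined genes). By the quantile-normalized difference 2 were higher in the marmoset and 5 higher in the rat (41.2%, beside 8.62% of all joined genes). Of the joined genes at rank 75 or above in a species, 21.8% were counted by rank and 19% by the quantile-normalized difference. SLC36A2, a carrier of proline and glycine, stood at 14.3 and 26.0 FPKM in the female and male marmoset kidney, and at 0.857 FPKM in the female and 0 in the male rat, a shift of 60.2 points. SLC5A8, a sodium-coupled carrier of lactate and other monocarboxylates, went the other way, at 0.539 and 1.14 FPKM in the marmoset against 29.8 and 17.0 FPKM in the rat, a shift of -65.7 points. In neither gene did the species overlap, which the count rule required of the ranks. Rat heart and liver held at most 0.200 FPKM of SLC36A2. SLC26A1, a sulfate and oxalate exchanger, had a shift of -27.2 points, which lay between -10.1 and -49.3 points when a library was left out, and the count was lost without the female marmoset or without the male rat. SLC26A1 was counted as higher in the rat in liver too (-26.6 points).

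Other carriers of the list differed in level without being counted by rank in the join by symbol. SLC3A1, the heavy subunit of the cystine carrier, ranked at 95.3 in the marmoset and 99.9 in the rat, a shift of -4.56 points. Its level was 42.3 and 52.1 FPKM in the marmoset and 934 and 822 FPKM in the rat, and its quantile-normalized log2 difference was -4.37. SLC5A12, the low-affinity lactate carrier, stood at 193 and 208 FPKM in the marmoset and 1.75 and 31.1 FPKM in the rat, a log2 difference of 4.46. Its rank was 99.3 in the marmoset and 76.3 in the rat, a shift of 23.05 points, and in the larger join through the name table the shift was 26.8 points, where it was counted as higher in the marmoset. With SLC5A8 higher in the rat and SLC5A12 higher in the marmoset, the lactate carriers of the list differed in opposite directions. SLC6A18, a neutral amino acid carrier, had 13.0 and 92.4 FPKM against 170 and 206 FPKM, and SLC5A10, a mannose and fructose carrier, 21.9 and 87.0 FPKM against 126 and 203 FPKM. The rat libraries were the higher ones in both genes.

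Among 19 carriers of organic ions and drugs, 10 were joined, with 1 counted. This is 10%, beside 14.6% of all joined genes and 21.8% of those at rank 75 or above in a species. The gene counted was SLCO2B1 (43.2 points), an uptake carrier of organic anions at 18.5 and 24.2 FPKM in the marmoset and 1.75 and 1.99 FPKM in the rat. SLCO2B1 was counted as higher in the marmoset in heart too (26.9 points). SLC22A6, the basolateral organic anion transporter OAT1, stood at 142 and 305 FPKM against 99.9 and 236 FPKM, with overlapping levels. The largest difference of the list was joined through the name table. SLC47A2, a luminal exporter of organic cations and drugs, stood at 271 and 702 FPKM in the marmoset kidney and at 0.0972 and 0.0731 FPKM in the rat kidney. The shift was 83.5 points. Rat heart and liver also held at most 0.210 FPKM of SLC47A2. The related SLC47A1, joined by symbol, stood at 84.7 and 154 FPKM in the marmoset and 94.6 and 151 FPKM in the rat kidney. ABCG2, an exporter of urate and drugs, was joined through the name table with a shift of -40.5 points, at 5.70 and 4.07 FPKM in the marmoset against 11.1 and 68.4 FPKM in the rat. ABCC2 had a shift of 25.1 points, and 18.7 to 32.1 points with a library left out, where the count was lost without the female marmoset or the male rat. By the same rule ABCG2 was counted as higher in rat liver (-25.9 points) and ABCC2 as higher in marmoset heart (31.4 points).

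Brush border enzymes held some of the largest shifts of any kidney list. Both subunits of meprin, a metalloprotease of the proximal tubule brush border, were high in the rat kidney and low in the marmoset kidney. MEP1A, the alpha subunit, stood at 1.50 and 1.74 FPKM in the marmoset and 210 and 160 FPKM in the rat, and MEP1B, the beta subunit, at 0.0281 FPKM and 0 against 60.0 and 54.5 FPKM. The shifts were -66.0 points for MEP1A and -90.1 points for MEP1B. In liver MEP1A was counted as higher in the marmoset (33.5 points). Marmoset heart and liver also held at most 0.118 FPKM of MEP1B. TREH, which splits trehalose, was the reverse, at 5.12 and 19.6 FPKM in the marmoset and listed at 0 in both rat kidneys, a shift of 69.4 points. It is listed at 0 in every rat heart and liver library too, and marmoset heart and liver held at most 0.0360 FPKM of TREH.

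The other brush border genes kept high ranks in both species while some levels differed. CUBN, the gene of cubilin, an endocytic receptor for filtered proteins, stood at 388 and 406 FPKM in the marmoset and 79.4 and 18.7 FPKM in the rat, a quantile-normalized log2 difference of 3.28. DPEP1, a dipeptidase, stood at 95.4 and 409 FPKM against 7.89 and 21.4 FPKM, a log2 difference of 3.65. In both genes the marmoset libraries were the higher ones. Of the 10 brush border genes joined, 1 was counted by rank as higher in the marmoset and 2 as higher in the rat (30%, beside 14.6% of all joined genes). By the quantile-normalized difference the counts were 3 and 2 (50%, beside 8.62% of all joined genes). Among joined genes at rank 75 or above in a species the shares were 21.8% by rank and 19% by the quantile-normalized difference.

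None of the 19 joined enzymes of amino acid and sugar metabolism was counted by rank, with a median shift of -0.36 points. The share counted was 14.6% of all joined genes and 21.8% of those at rank 75 or above in a species. Median ranks of the list were 98.0 in the marmoset and 99.3 in the rat, which leave little room for a shift of 25 points. By the quantile-normalized difference 7 were higher in the rat and 2 higher in the marmoset (47.4%, beside 8.62% of all joined genes). At rank 75 or above in a species, 19% of the joined genes were called by that difference. MIOX, which opens the ring of inositol, stood at 87.5 and 259 FPKM in the marmoset and 800 and 3734 FPKM in the rat, a log2 difference of -3.48. GATM, the enzyme that starts creatine synthesis, stood at 63.8 and 199 FPKM against 420 and 1818 FPKM (-2.78). DAO, D-amino acid oxidase, stood at 43.3 and 97.8 FPKM against 326 and 739 FPKM (-2.86). HAO2, BHMT2 and UPB1 were also higher in the rat.

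The enzymes higher in the marmoset were BHMT, which remethylates homocysteine with betaine, and DDC, which makes dopamine in the proximal tubule. BHMT stood at 65.2 and 135 FPKM in the marmoset and 9.27 and 19.4 FPKM in the rat, a log2 difference of 2.48. DDC stood at 71.6 and 164 FPKM against 17.0 and 17.1 FPKM, a log2 difference of 2.31. BHMT and its neighbour in function BHMT2, at 24.0 and 28.5 FPKM in the marmoset against 102 and 173 FPKM in the rat, thus differed in opposite directions. PRODH, the first enzyme of proline breakdown, was joined through the name table and stood at 0.374 and 1.44 FPKM in the marmoset and 16.4 and 21.9 FPKM in the rat, a shift of -61.7 points.

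Of 9 joined enzymes of detoxification and lipid oxidation, 3 were counted as higher in the rat and 1 as higher in the marmoset. This is 44.4% in either direction, beside 14.6% of all joined genes and 21.8% of those at rank 75 or above in a species. CYP4B1, a cytochrome P450, stood at 0.0363 and 0.0443 FPKM in the marmoset and 240 and 85.1 FPKM in the rat kidney, a shift of -89.2 points. CYP4B1 was at most 0.0677 FPKM in the marmoset hearts and livers and at 226 and 173 FPKM in the rat livers, so it differed in liver too. It was counted as higher in the rat in heart as well (-83.4 points). CYP2E1, the ethanol-oxidizing P450, stood at 0.0416 and 2.38 FPKM in the marmoset and 120 and 42.9 FPKM in the rat kidney, a shift of -71.5 points. Its liver levels were close, at 4620 and 6433 FPKM in the marmoset and 5974 and 3858 FPKM in the rat. XDH, xanthine dehydrogenase, was also higher in the rat kidney, with 0.597 and 0.494 FPKM against 6.79 and 14.9 FPKM, a shift of -57.4 points. Its liver shift was -0.05 points. In heart XDH (-69.0 points) and CYP2E1 (-33.3 points) were both counted as higher in the rat too. ACSM5, a mitochondrial acyl-CoA synthetase, was higher in the marmoset, at 6.36 and 11.4 FPKM against 1.13 and 1.02 FPKM, a shift of 31.9 points. ACSM5 was counted in the same direction in heart (34.3 points).

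Of 6 joined genes of the loop of Henle and distal tubule, none was counted by rank. This stands beside 14.6% of all joined genes and 21.8% of those at rank 75 or above in a species. The median shift of the 6 was -1.95 points, and their median ranks were 97.4 in the marmoset and 99.1 in the rat. Ranks so high leave little room for a shift of 25 points. SLC12A1, the sodium-potassium-chloride cotransporter blocked by loop diuretics, stood at 76.3 and 74.0 FPKM in the marmoset and 263 and 107 FPKM in the rat. CLDN16, a claudin of paracellular magnesium uptake joined through the name table, had a shift of -33.2 points, at 7.19 and 5.79 FPKM against 35.3 and 19.2 FPKM. In both of these genes the rat libraries were the higher ones.

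Among 14 joined genes of collecting duct and intercalated cells, 2 were counted as higher in the rat and 1 as higher in the marmoset. This is 21.4% in either direction, beside 14.6% of all joined genes and 21.8% of those at rank 75 or above in a species. AQP4, the basolateral water channel of principal cells, stood at 0.0129 and 0.00978 FPKM in the marmoset and 6.81 and 4.23 FPKM in the rat kidney, a shift of -60.2 points. Marmoset heart and liver also held at most 0.295 FPKM of AQP4. KCNJ10, a basolateral potassium channel, stood at 3.05 and 3.39 FPKM against 8.51 and 7.32 FPKM, a shift of -30.4 points. In liver KCNJ10 was counted as higher in the marmoset (35.9 points). ATP4A, a hydrogen-potassium pump, was higher in the marmoset, at 4.65 and 11.6 FPKM against 0.185 and 0.200 FPKM, a shift of 43.3 points. Rat heart and liver also held at most 0.173 FPKM of ATP4A. HSD17B2, which oxidizes estradiol and testosterone, was joined through the name table, with 44.7 and 97.1 FPKM in the marmoset kidney against 1.71 and 1.43 FPKM in the rat, a shift of 56.0 points. Both livers were rich in HSD17B2, at 261 and 282 FPKM in the marmoset and 82.9 and 124 FPKM in the rat.

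Of 9 joined genes of the glomerulus, PLA2R1 and NPHS1 were counted as higher in the marmoset and none as higher in the rat. This is 22.2%, beside 14.6% of all joined genes and 21.8% of those at rank 75 or above in a species, counted in either direction. PLA2R1, the phospholipase A2 receptor of podocytes, stood at 6.86 and 4.77 FPKM in the marmoset and 0.145 and 0.164 FPKM in the rat, a shift of 38.0 points. NPHS1, the slit diaphragm protein nephrin, stood at 21.7 and 115 FPKM against 10.2 and 3.26 FPKM, a shift of 26.9 points. Leaving out a library moved the NPHS1 shift between 14.2 and 39.9 points, and the count was lost without the male of either species. NPHS1 was listed at 202 and 1373 FPKM in the marmoset liver, above the kidney, and at 0.00983 FPKM and 0 in the rat liver.

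Hormone and receptor genes differed in both directions. CYP27B1, which makes the active form of vitamin D and was joined through the name table, stood at 18.8 and 110 FPKM in the marmoset and 0.160 and 0.828 FPKM in the rat kidney, a shift of 66.2 points. CALCR, the calcitonin receptor, was listed at 0 in both marmoset kidneys and stood at 2.13 and 3.39 FPKM in the rat, a shift of -48.0 points, and it is at 0 in all marmoset heart and liver libraries as well. EDNRB, an endothelin receptor, had a shift of 33.8 points, at 59.9 and 81.2 FPKM against 8.59 and 2.35 FPKM. It fell to 19.3 points without the male rat, where the count was lost. EDNRB was also counted as higher in the marmoset in heart (34.9 points) and in liver (46.6 points). PRLR, the prolactin receptor joined through the name table, had a shift of -37.2 points, and -13.0 points without the male rat.

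Transcription factors of the nephron had a median shift of -5.45 points over 11 joined genes, beside -0.09 points over all joined genes. TFCP2L1, a regulator of the collecting duct, stood at 8.23 and 4.70 FPKM in the marmoset and 28.9 and 14.2 FPKM in the rat, a shift of -30.6 points. The count of TFCP2L1 was lost without the male marmoset or the female rat, with -21.2 points the smallest value. PPARA, a regulator of fatty acid oxidation, had a shift of 29.5 points, at 11.1 and 12.0 FPKM against 1.69 and 2.54 FPKM, and 24.7 points without the female rat, just under the threshold. PPARA was counted as higher in the marmoset in liver too (26.1 points).

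The genes that differed most were next taken from all 6474 joined genes. The 12 largest shifts in each direction were named among genes with at least 1 FPKM in a heart, kidney or liver library of the lower species, so that its gene model gives values. Of the 475 genes counted as higher in the marmoset, 336 met this, and of the 467 counted as higher in the rat, 356.

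**Figure D3:**
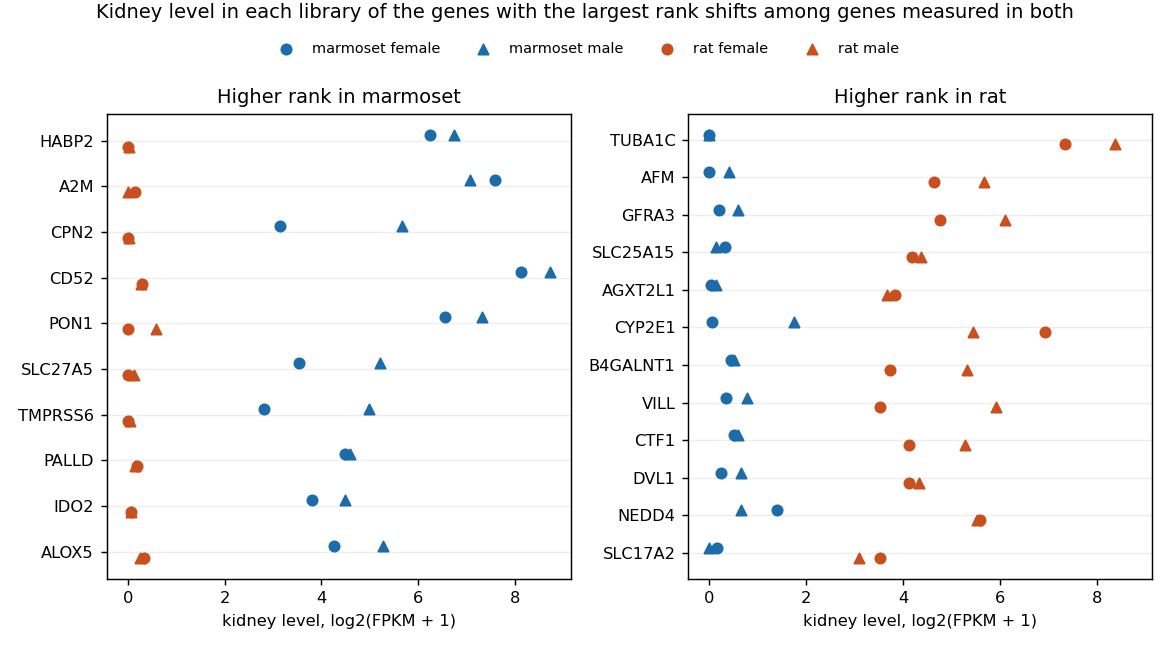
Kidney level, as log2(FPKM + 1) (horizontal axis), in each library of genes with the largest shift toward the marmoset (left, 10 of the 12) and toward the rat (right, 12), among genes measured in both species; blue is marmoset, orange is rat, circles are females and triangles males. In every gene both libraries of the higher species lie to the right of both of the other. The count rule required this of the ranks. TUBA1C, at 0 in both marmoset kidneys, is the gene with the largest shift on the right.

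Of the 12 genes toward the marmoset 10 are described, and 6 of these were genes that both livers expressed at more than 10 FPKM and that only the marmoset kidney expressed above 1 FPKM. HABP2, a plasma protease that binds hyaluronan, had the largest shift of the 12, 90.7 points. It stood at 74.8 FPKM in the female and 105 FPKM in the male marmoset kidney, and was listed at 0 and at 0.0150 FPKM in the rat kidneys. Liver levels of HABP2 were 387 and 414 FPKM in the marmoset and 138 and 160 FPKM in the rat, a liver shift of 1.34 points. CPN2, the regulatory subunit of carboxypeptidase N in plasma, stood at 7.83 and 49.9 FPKM in marmoset kidney against 0 and 0.0144 FPKM, a shift of 79.5 points. The liver shift of CPN2 was 1.61 points.

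PON1, the paraoxonase carried on HDL, stood at 92.4 and 159 FPKM in marmoset kidney and at 0 and 0.493 FPKM in rat kidney, a shift of 76.4 points. PON1 was also counted in heart, with 31.0 and 69.7 FPKM in the marmoset and 0.649 and 2.20 FPKM in the rat. SLC27A5, which activates bile acids, had 10.7 and 35.8 FPKM against 0 and 0.0948 FPKM (72.4 points), and it too was counted in heart. TMPRSS6, the protease that restrains hepcidin, had 6.06 and 30.7 FPKM against 0 and 0.0306 FPKM (70.5 points). IDO2, an enzyme of tryptophan breakdown, had 13.0 and 21.4 FPKM against 0.0441 and 0.0548 FPKM (69.4 points). Liver shifts of these genes ran from -1.14 points for TMPRSS6 to 10.2 points for IDO2.

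Markers of hepatocytes were measured beside these genes. The 10 markers of the list with values in both tables summed to 328 and 595 FPKM in the marmoset kidneys and 23.9 and 33.0 FPKM in the rat kidneys, against 36704 to 100104 FPKM in the livers of both species. In the marmoset kidneys 6 of the 10 were below 1 FPKM in the female and 1 in the male, and in the rat kidneys 5 and 4. Most of the marmoset kidney sum was SERPINA1, the gene of alpha-1-antitrypsin, at 266 and 367 FPKM. As a share of the same animal's liver level, the markers varied in marmoset kidney. APOA1 was at 0.407% in the female and 0.937% in the male, TF at 0.535% and 0.442%, APOB at 0.0290% and 0.0825%, CPS1 at 0.0107% and 0.0592%, and AHSG at 0 and 0.0243%. In the female SERPINA1 was at 1.97%, and FGA, FGB and HP were at most 0.00258%; the male liver is listed at 0 for these 4. ALB, at 0 in both livers, held 2.58 and 68.4 FPKM in the marmoset kidneys, and HP held 0.401 and 40.7 FPKM. The female and male marmoset hearts held 1.90 and 155 FPKM of ALB and 0.155 and 123 FPKM of HP. The 10 markers summed to 23.8 and 402 FPKM in the marmoset hearts and 33.6 and 165 FPKM in the rat hearts. For HABP2 the share of the liver level in marmoset kidney was 19.3% in the female and 25.4% in the male, and for CPN2 3.37% and 3.68%. The part of hepatocyte RNA in these shifts was not tested. SERPINA1 (69.3 points) and APOA1 (66.9 points), both joined through the name table, were counted as higher in marmoset kidney, and FGA (-34.8 points) as higher in the rat; the FGA count was lost without the female marmoset, at -19.0 points.

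The remaining 4 genes toward the marmoset were of other kinds. A2M, the plasma protease inhibitor alpha-2-macroglobulin, stood at 192 and 133 FPKM in marmoset kidney and 0.103 and 0.0109 FPKM in rat kidney, a shift of 84.5 points. The A2M difference held in every tissue compared, with shifts of 89.6 points in heart and 59.2 points in liver. CD52, a surface glycoprotein of lymphocytes, stood at 278 and 419 FPKM against 0.224 and 0.209 FPKM (77.8 points), and was counted in heart and liver as well. ALOX5, the enzyme that starts leukotriene synthesis in white blood cells, had 18.1 and 37.8 FPKM against 0.268 and 0.200 FPKM (68.0 points). ALOX5 was counted in liver (38.0 points) and not in heart.

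PALLD, the gene of palladin, a scaffold of actin fibres, stood at 21.3 and 23.2 FPKM in marmoset kidney and 0.143 and 0.113 FPKM in rat kidney, a shift of 69.5 points. The hearts held similar levels of PALLD, 38.5 and 28.5 FPKM in the marmoset and 18.1 and 27.9 FPKM in the rat, a shift of 1.39 points. PALLD thus differed in kidney and not in heart by the rule.

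The sum of immune markers was also higher in the marmoset kidney. The 5 immune markers with values summed to 1732 and 2768 FPKM in the marmoset kidneys and 389 and 828 FPKM in the rat kidneys, nearly all of it CD74, a chaperone of antigen presentation, at 1691 and 2733 FPKM in the marmoset. All 5 were above 1 FPKM in the marmoset kidneys and 2 were below it in each rat kidney. CD3E, a T cell receptor subunit joined through the name table, stood at 8.16 and 9.60 FPKM against 0.145 and 0.458 FPKM, a shift of 40.7 points. PTPRC, the pan-leukocyte gene CD45, also joined so, had 15.4 and 8.83 FPKM against 1.28 and 1.84 FPKM, a shift of 32.3 points, and 23.2 points without the female marmoset. The part of these markers in the shifts of CD52 and ALOX5 was not tested.

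Of the 475 genes counted as higher in the marmoset, 139 were below 1 FPKM in every rat heart, kidney and liver library, and 40 were listed at 0 in both rat kidneys, 16 of them in all 6 rat libraries. For those 16, a low level and a gene model that gathers no reads cannot be told apart. The 5 with the largest shifts were HSD17B14, a steroid dehydrogenase (93.0 points), LECT1, the gene of chondromodulin (83.6 points), PNMA1 (81.1 points), ANKRD33 (79.7 points) and IFIT1, an interferon-induced gene (76.3 points). HSD17B14 stood at 25.2 and 111 FPKM in the marmoset kidneys, and at 434 and 1583 FPKM in the livers. LECT1, at 16.6 and 24.4 FPKM in marmoset kidney, was below 1 FPKM in marmoset heart and liver.

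Toward the rat, the largest shift among measured genes was that of TUBA1C, an alpha-tubulin, at -96.6 points. It was listed at 0 in both marmoset kidneys and stood at 162 and 331 FPKM in the rat kidneys, while the marmoset hearts held 30.9 and 97.8 FPKM. TUBA1C has near-identical relatives among the alpha-tubulins, so how reads were divided among them may differ between the tables, and its values are uncertain.

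As toward the marmoset, several genes toward the rat were liver genes of both species. AFM, the gene of afamin, a plasma carrier of vitamin E, was at 0 and 0.331 FPKM in the marmoset kidneys and 23.9 and 49.7 FPKM in the rat kidneys, a shift of -79.4 points, with a liver shift of -0.06 points. SLC25A15, the mitochondrial ornithine carrier, had 0.258 and 0.106 FPKM against 17.2 and 19.6 FPKM (-73.8 points). AGXT2L1, a phospholyase of phosphoethanolamine, had 0.0224 and 0.0998 FPKM against 13.3 and 11.8 FPKM (-72.8 points). SLC17A2, of the family of phosphate and organic anion carriers, had 0.110 FPKM and 0 against 10.5 and 7.58 FPKM (-67.0 points). In rat kidney, AGXT2L1 reached 37.2% and 36.8% of its liver level, SLC17A2 25.8% and 20.3%, SLC25A15 22.2% and 21.7%, and AFM 4.95% and 3.55%. CYP2E1, described above, belongs to the same group. In heart SLC25A15 was counted as higher in the rat too (-43.8 points), while AGXT2L1 was counted there as higher in the marmoset (48.1 points). AFM and SLC17A2 were not counted in heart.

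The other genes toward the rat were mostly higher in rat heart or liver too. GFRA3, the receptor of the neurotrophic factor artemin, stood at 0.144 and 0.500 FPKM in the marmoset and 26.1 and 67.7 FPKM in the rat kidney, a shift of -76.7 points. In heart GFRA3 was the reverse, 21.0 and 31.6 FPKM in the marmoset against 1.55 and 6.51 FPKM in the rat, counted there as higher in the marmoset, while in liver it was counted as higher in the rat (-68.7 points), with 0.171 and 0.0541 FPKM against 9.83 and 38.2 FPKM. VILL, a villin-like protein, had 0.274 and 0.708 FPKM against 10.5 and 59.3 FPKM in kidney (-70.6 points), and it was higher in the marmoset in heart, with 1.78 and 6.64 FPKM against 0.0461 and 0.0139 FPKM. B4GALNT1, a ganglioside synthase (-70.9 points), CTF1, the cytokine cardiotrophin (-70.6 points), DVL1, a Wnt signal transducer (-69.5 points), and NEDD4, a ubiquitin ligase (-68.1 points), were each counted as higher in the rat in liver as well. CTF1, DVL1 and NEDD4 were counted in heart too.

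Of the 467 genes counted as higher in the rat, 111 were below 1 FPKM in every marmoset heart, kidney and liver library. Listed at 0 in both marmoset kidneys were 52, and 31 of them in all 6 marmoset libraries. For those 31, a low level and a gene model that gathers no reads cannot be told apart. TFF3, a trefoil peptide of mucosal surfaces, had the largest shift, -96.9 points, at 125 FPKM in the female and 2077 FPKM in the male rat kidney and at 0 in all 6 marmoset libraries. DNAJC15, a mitochondrial co-chaperone (-93.4 points), SEPHS2, which makes selenophosphate (-93.3 points), SULT2B1, a sulfotransferase of sterols (-91.4 points), and RESP18 (-90.3 points) followed. Like TFF3, the genes DNAJC15, SULT2B1 and RESP18 were at 0 in all 6 marmoset libraries. DNAJC15 was high in rat heart as well, at 190 and 306 FPKM. The rat kidneys held 29.5 and 40.4 FPKM of SULT2B1, and the rat hearts were listed at 0.

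Some of the genes counted in kidney were counted in the other tissues too. Of the 475 genes counted as higher in the marmoset kidney, 151 (31.8%) were counted in the same direction in heart, beside 6.81% of all joined genes. In liver 161 (33.9%) were, beside 7.12%, with 80 in both tissues and 243 (51.2%) in neither. Of the 467 counted as higher in the rat kidney, 164 (35.1%) were counted in heart, beside 6.56% of all joined genes. In liver 190 (40.7%) were, beside 6.55%, with 107 in both tissues and 220 (47.1%) in neither. An opposite call in heart or liver was found for 14 and 26 genes. Across all joined genes the kidney shift correlated with the heart shift at a Spearman's rho of 0.480 and with the liver shift at 0.520, over genes that are not replicates and over values from the same animals. The pattern of HABP2, CPN2 and AFM, a liver rank of at least 75 in both species with a liver shift under 10 points, was met by 52 of the 475 genes (10.9%) and by 36 of the 467 (7.71%), beside 15.6% of all joined genes.

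**Figure D4:**
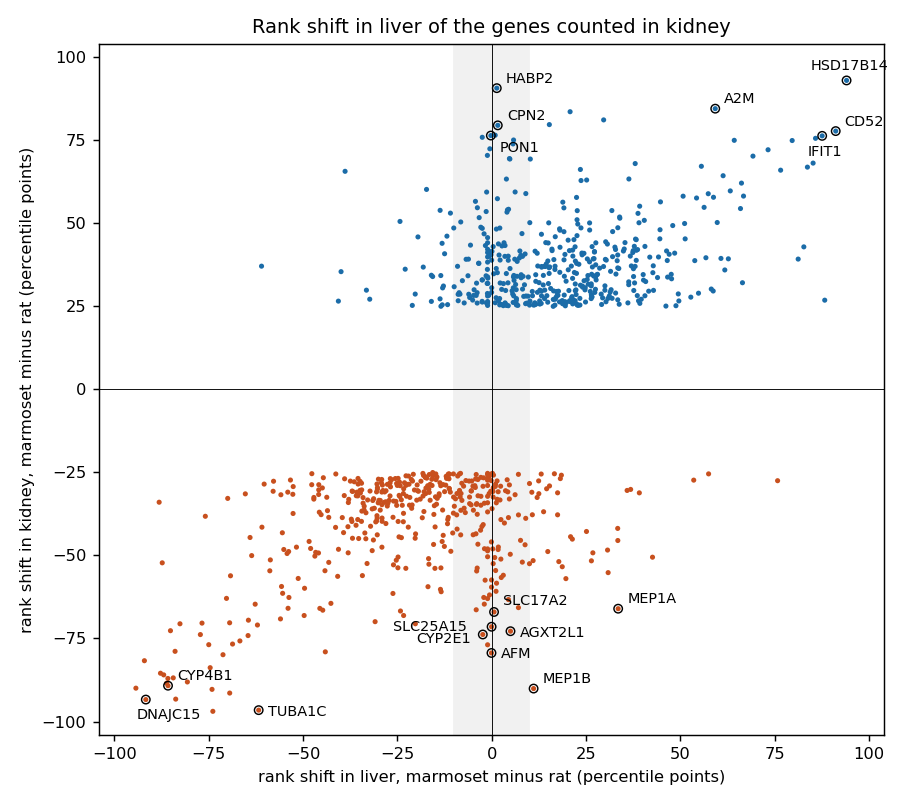
Rank shift in liver (horizontal axis) and in kidney (vertical axis), marmoset minus rat in percentile points, of the 942 genes counted in kidney; blue genes were higher in marmoset kidney and orange genes in rat kidney, and the grey band marks liver shifts under 10 points. HABP2, CPN2, PON1, AFM and CYP2E1 lie in the band, while CD52, IFIT1, CYP4B1 and DNAJC15 lie near the corners with shifts of like size in both tissues.

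Within each table a test was possible, of kidney against the mean of heart and liver. It used limma on log2(FPKM + 1) with the animal as a block. Calls needed a log2 change of at least 1 and an adjusted p (Benjamini-Hochberg, over all genes tested in the table) under 0.05. The marmoset kidney was higher in 1800 of 13967 genes tested (12.9%) and lower in 1482 (10.6%), and the rat kidney higher in 1673 of 13128 (12.7%) and lower in 1751 (13.3%). Without the block the marmoset counts fell to 1075 higher and 644 lower. Of 4462 joined genes tested in both tables, 528 were higher in kidney in the marmoset and 596 in the rat. The overlap was 310 genes, 58.7% of the marmoset list and 52.0% of the rat list. Lower in kidney were 489 and 542 genes, with 262 in common (53.6% and 48.3%). With the animal as a block, each species' p-values measure how the tissue differences vary between 2 animals. They do not measure the spread between the animals themselves. The kidney libraries are those that gave the ranks.

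The share of list members that were higher in kidney varied by list. Over all genes of the join through the name table, 1144 of 8753 tested passed as higher in the marmoset kidney and 958 as lower. For the rat kidney 1081 of 8140 passed as higher and 1046 as lower. In the join through the name table, 21 of 24 tested proximal tubule carriers passed as higher in the marmoset kidney and 22 of 24 in the rat, and none as lower. For the loop of Henle and distal tubule the counts were 10 of 12 and 11 of 11, and for collecting duct and intercalated cells 16 of 18 and 15 of 17 (1 lower in the rat). Among kidney transcription factors 13 of 16 passed as higher in the marmoset and 13 of 17 in the rat, and among brush border genes 10 of 13 and 12 of 13. The shares were smaller for organic ion and drug carriers, 12 of 16 and 9 of 14 (2 lower in each species), for glomerulus and podocytes, 7 of 10 and 5 of 9 (1 lower in the marmoset), and for hormones and receptors, 7 of 11 and 8 of 11 (1 lower in the rat). Of the amino acid and sugar enzymes 20 of 31 and 23 of 31 passed as higher, and 2 in each species as lower. Of the detoxification and lipid oxidation enzymes, 4 of 14 passed as higher and 5 as lower in the marmoset, and 6 of 15 as higher and 2 as lower in the rat. SLC34A1 was 9.96 log2 units higher in marmoset kidney (SE 0.40, limma adjusted p = 0.00029) and 9.39 higher in rat kidney (SE 0.61, limma adjusted p = 0.00017). No oxidative phosphorylation gene passed as higher in kidney, and 10 of 16 in the marmoset and 9 of 16 in the rat passed as lower than the mean of heart and liver.

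The genes named above differed in how the kidney stood against heart and liver in each species. MEP1A was 7.39 log2 units higher in rat kidney (SE 0.17, limma adjusted p = 3.1e-05), and in the marmoset its value was -0.10 (SE 0.19, limma adjusted p = 0.73). HABP2 was higher in marmoset kidney by 2.00 (SE 0.19, limma adjusted p = 0.0017) and in rat kidney it fell by 4.00 (SE 0.17, limma adjusted p = 5.3e-05). GFRA3 fell by 2.06 in marmoset kidney (SE 0.23, limma adjusted p = 0.0027) and was 2.19 higher in rat kidney (SE 0.20, limma adjusted p = 0.00065). AFM fell by 4.97 in marmoset kidney (SE 0.37, limma adjusted p = 0.00084), with a value of 0.10 in rat kidney (SE 0.31, limma adjusted p = 0.82). The difference between the species in these contrasts was not tested. Opposite calls were rare among the joined genes tested in both tables, with 23 higher in marmoset kidney and lower in rat kidney, and 20 the other way.

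**Figure D5:**
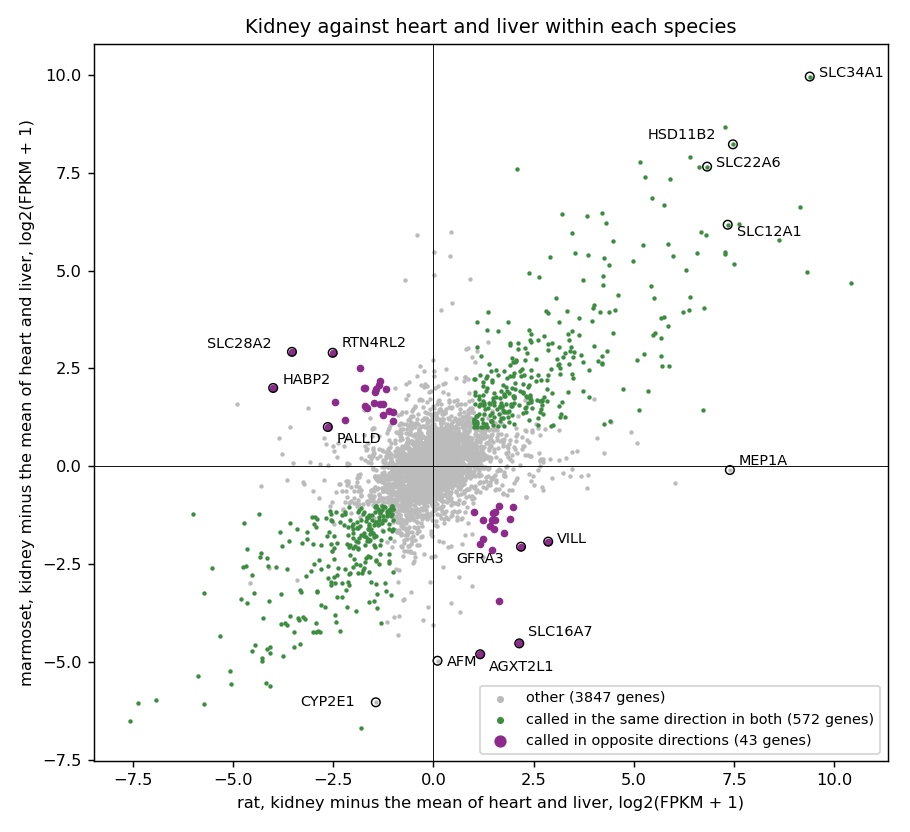
Kidney minus the mean of heart and liver, in log2(FPKM + 1), in the rat (horizontal axis) and the marmoset (vertical axis) for the 4462 joined genes tested in both tables; green points passed the limma test in the same direction in both species, purple points in opposite directions and grey points otherwise, and open circles mark labelled genes. Most called genes lie in the lower left and upper right, with SLC34A1 farthest toward the upper right, and 43 purple genes lie in the other quadrants.

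Markers of other cell types were read in the join through the name table, of whose 11094 genes 13.4% were counted in either direction. None of 8 smooth muscle and fibroblast markers or 9 endothelial markers was counted, with median shifts of 0.84 and 3.64 points. Endothelial markers summed to 124 and 214 FPKM in the marmoset kidneys and 90.0 and 124 FPKM in the rat kidneys. The 4 adrenal cortex markers with values summed to 11.5 and 45.7 FPKM in the marmoset and 0.918 and 1.05 FPKM in the rat. CYP11A1, the first enzyme of steroid synthesis, made nearly all of the marmoset sum, at 11.4 and 44.7 FPKM against 0.131 and 0.468 FPKM, a shift of 61.2 points, and 3 of the 4 markers were below 1 FPKM in each marmoset kidney. CYP11A1 was at 36.4 and 51.2 FPKM in the marmoset livers. Of 6 urothelium markers, UPK1B alone was counted (30.5 points), and it fell to 24.4 points without the male marmoset. Among housekeeping lists, none of 15 ribosomal protein genes was counted, and the proteasome genes PSMA4 (-32.7 points) and PSMD12 (-31.7 points) were counted as higher in the rat.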

How the data were processed

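The deposited values are FPKM by the authors, in 1 table per species, with Ensembl gene IDs, symbols and an autosome or sex chromosome mark. The submitters' processing notes name TopHat 1.4.0 and Cufflinks 2.0.0. Not given in the sources used here are the genome build, the annotation, the normalization method and the depth. Kidney, heart and liver columns were matched to the samples by name, and 18 other per-sample columns were left out.

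Autosomal genes with a unique symbol were joined and ranked with average ranks for ties (Python 3.11.15, pandas 2.3.3). Within each table, log2(FPKM + 1) was fitted with limma 3.58.1 (R 4.3.3; trend on). This scale understates changes near 1 FPKM. The filter kept genes reaching 1 FPKM in 2 or more of the fitted libraries. The fit was tested on simulated data. The animal is a block because the labels give the same sex and individual number to the tissues. Deviations from the tissue means, as a check, correlated between tissues of an animal at 0.614 to 0.721 in the marmoset and 0.443 to 0.516 in the rat.

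Named were the 12 largest counted shifts in each direction with at least 1 FPKM in a library of the lower species, the 5 largest without it, counted members of the gene lists, and the 10 highest mean ranks, except a few genes that are not reported here; other list members, the genes at the edge of the rule and the genes called in opposite directions were chosen after their values were seen. The members and lists were chosen with earlier results of these data known. Alternatives were other gene names, rankings, pseudocounts, filters, thresholds and normalizations, no block, and leaving out each kidney library. Without separate counts, precision rests on 2 libraries per group.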

Additional observations from a re-analysis of the deposited data

Results flagged for a closer look

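In 15 of the genes named, both animals of one species had the kidney above the mean of their own heart and liver, and both animals of the other had it below. These genes were named for kidney ranks that differed between the species, and the same kidney values enter here. The choice thus favoured opposite signs, and no share over all joined genes stands beside the 15. The difference between the species was not tested, since the tables were normalized separately. Values are marmoset minus rat, of kidney minus the mean of heart and liver in log2(FPKM + 1), averaged over the animals.

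Positive values belong to genes in which the kidney was above the mean of heart and liver in both marmosets and below it in both rats; being above that mean does not put the kidney above each tissue. These were HABP2 at 6.00, PALLD at 3.63, IDO2 at 2.88, ALOX5 at 2.79 and CD52 at 1.51. In the female marmoset CD52 was only 0.028 above that mean, and limma called CD52 in neither species. PLA2R1, the podocyte receptor, was of the same kind at 1.82, and it was not tested by limma in the rat. IDO2 was not called in the marmoset, and ALOX5 was not called in the rat.

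Negative values belong to genes in which the kidney was below the mean of heart and liver in both marmosets and above it in both rats. In rat AFM, for example, the kidney held less than the liver. MEP1A, the meprin subunit, had the largest at -7.49. AGXT2L1 followed at -5.97, AFM at -5.08, VILL at -4.79, GFRA3 at -4.24 and SLC17A2 at -3.46. AQP4 was at -2.66, B4GALNT1 at -1.36 and CTF1 at -0.66. Some of the signs rest on small values in a single animal. CTF1 was at -0.0031 in the female marmoset, MEP1A at -0.019 in the male marmoset and AFM at 0.028 in the female rat. By limma, MEP1A in the marmoset, AFM and SLC17A2 in the rat and CTF1 in either species were not called. AQP4 and B4GALNT1 were not tested by limma in the marmoset.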

How the results depend on the processing

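The rank shift counts, 475 genes toward the marmoset and 467 toward the rat, became 744 and 747 with the name table, 78 and 109 at 50 points, and 273 and 285 by the quantile-normalized difference, which share 241 and 238 genes with the main counts. The Spearman correlation was 0.801 with the name table, 0.645 among genes at 1 FPKM or more in a kidney library, and 0.768 to 0.776 with a library left out. Of the genes counted toward the marmoset, 151 were counted in heart, or 96 when ranked over all genes of each table and 248 with the name table; for liver 161 became 96 and 263. Toward the rat, heart went from 164 to 253 with the name table. The marmoset limma calls, 3282 with the replicate block, fell to 1719 without it (1075 higher, 644 lower), and to 1935 (1115 higher, 820 lower) without the filter. With a kidney library left out they were 1378 to 1506 (651 to 726 higher, 727 to 780 lower); the lone kidney library is then assumed to vary like the others. The rat calls, 3424, became 2831 without the block, 2179 (1109 higher, 1070 lower) without the filter, and 890 to 1103 higher and 1237 to 1519 lower with a library left out. UQCR11 in rat kidney went from -1.09 to 0.0053 (limma adjusted p = 0.99) under quantile normalization. The cause of these changes was not tested. The alternatives for heart and liver, and those for members joined through the name table, were chosen after seeing the data. Other log2 changes of named genes kept their side of the threshold in 482 fits, passed it newly in 22 and lost it in 53. The depth is unknown, so low values carry no counting interval.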

Other observations

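Genes called in opposite directions by limma were not all among the largest rank shifts. SLC28A2, a sodium-coupled nucleoside carrier, stood at 7.84 and 7.54 FPKM in the female and male marmoset kidney and at 0.531 FPKM or less in marmoset heart and liver. In the rat it stood at 1.25 and 1.75 FPKM in kidney and at 97.4 and 67.5 FPKM in liver. The kidney was 2.92 log2 units higher in the marmoset (SE 0.20, limma adjusted p = 0.00067), and in the rat it fell by 3.53 (SE 0.27, limma adjusted p = 0.00030). SLC28A2 missed the rank count at 24.9 points.

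SLC16A7, the monocarboxylate carrier MCT2, was the reverse, at 2.19 FPKM in both marmoset kidneys against 62.2 FPKM or more in marmoset heart and liver, and at 32.9 and 9.50 FPKM in the rat kidneys against 0.143 and 0.213 FPKM in the rat hearts. Rat liver held 14.7 and 14.4 FPKM of SLC16A7, above the male rat kidney. RTN4RL2, a receptor of the Nogo family, stood at 12.3 and 69.8 FPKM in the marmoset kidneys and 0.227 and 0.572 FPKM in the rat kidneys, and rat liver held 12.9 and 116 FPKM. ACSS2, which makes acetyl-CoA from acetate, stood at 5.45 and 7.10 FPKM in the marmoset kidneys and 140 and 157 FPKM in the rat kidneys, while marmoset liver held 131 and 392 FPKM. These genes were chosen after their values were seen.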
